A study of Mus musculus with 10 samples.

Results

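Imprinted growth genes are copied mainly from the maternal or the paternal chromosome, and 10 of them were followed over the chemical conversion of mouse fibroblasts to cells resembling extraembryonic endoderm (XEN, the lineage of the yolk sac). They were chosen by name, as 10 of the 23197 genes in the count table, and were *H19*, *Meg3*, *Dlk1*, *Plagl1*, *Peg3*, *Cdkn1c*, *Grb10*, *Ndn*, *Mest* and *Peg10*. Mouse embryonic fibroblasts (MEFs) from ICR mice, which are mixed mesenchymal cells cultured from embryo bodies freed of head, limbs and viscera, were given the C6FAE cocktail, made of CHIR99021 (a GSK3 inhibitor), the TGF-β receptor inhibitor abbreviated as 6, Forskolin (an activator of adenylyl cyclase), AM580 (a retinoic acid receptor agonist) and EPZ004777 (a DOT1L inhibitor). Single cells were picked by hand at d0 (the untreated MEFs), d1, d2, d3, d4, d5, d6p, d8, d12 and d20, and from colonies at d8 (d8c) and d12 (d12c). The sources used here do not say what the p of d6p stands for. The table held 808 cells in 12 groups, and 670 of them, those in which 4000 or more genes were detected, were analysed, between 20 (d8c) and 86 (d6p) per group.

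At an imprinted locus, DNA methylation laid down in the egg or the sperm marks the chromosomes by parent of origin, and the mark decides which copy is read. Many such genes act on growth before birth and are abundant in fetal mesenchyme and in extraembryonic tissues, with paternally expressed genes often promoting growth and maternally expressed genes often restraining it. *H19* and *Meg3* are maternally expressed non-coding RNAs, *Cdkn1c* and *Grb10* are maternally expressed restrainers of growth in most embryonic tissues, and *Dlk1*, *Peg3*, *Plagl1*, *Mest*, *Peg10* and *Ndn* are paternally expressed. Parental copies were not distinguished in these counts, so every level is the sum of both.

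On the NCBIM37 (mm9) genome with the GENCODE M1 annotation, several of the genes lie together. *Dlk1* (chr12:110691033-110701546) and *Meg3* (chr12:110779211-110809936) are neighbours on the plus strand. *H19* (chr7:149761434-149764048) and *Cdkn1c* (chr7:150644255-150646955) lie on the minus strand at the far end of chromosome 7, which also holds *Peg3* (chr7:6656603-6683132, minus strand) and *Ndn* (chr7:69493163-69494814, plus strand). *Peg10* (chr6:4697306-4710514) and *Mest* (chr6:30673547-30698457) are on the plus strand of chromosome 6, *Plagl1* (chr10:12810497-12851500) on the plus strand of chromosome 10 and *Grb10* (chr11:11830511-11938686) on the minus strand of chromosome 11. *Mest* overlaps *Copg2* on the other strand, and *Meg3* overlaps the non-coding gene *Gm17639* on the other strand. Whether strand was used in counting is not given in the sources used here, so such reads cannot be told apart. *Copg2* itself averaged 0.596 to 4.07 CPM (unique molecular identifiers, UMIs, of a gene per 1000000 of the cell's total) over the 12 groups and the 2 number ranges of d12c.

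*H19*, *Meg3* and *Mest* are also hosts of microRNAs, which are cut from the host RNA or its introns. Their mature sequences are shown because they lie within these genes. Where a microRNA is cut from an intron, the host gene's count need not stand for the RNA that carries it. The libraries captured polyadenylated RNA, so no level of a mature microRNA is given. The sequences are from RefSeq (GRCm38.p6), are written 5′ to 3′ and have the seed (bases 2 to 8) in capitals, and the 7 seeds all differ.
mmu-miR-675-5p: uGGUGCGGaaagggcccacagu (in *H19*)
mmu-miR-675-3p: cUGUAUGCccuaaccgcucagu (in *H19*)
mmu-miR-770-5p: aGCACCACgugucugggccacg (in *Meg3*)
mmu-miR-770-3p: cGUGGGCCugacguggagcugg (in *Meg3*)
mmu-miR-1906: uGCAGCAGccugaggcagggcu (in *Meg3*)
mmu-miR-335-5p: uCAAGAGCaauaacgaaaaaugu (in *Mest*)
mmu-miR-335-3p: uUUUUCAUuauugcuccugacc (in *Mest*)

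RefSeq promoter windows of 300 bases (250 before the start and 50 after it, GRCm38.p6) were matched for 7 of the 10 genes, as 11 windows. No window was matched for *H19*, *Cdkn1c* or *Peg10*. Because Forskolin raises cAMP, the palindromic cAMP response element TGACGTCA, which reads the same on both strands, was looked for. It was found in 2 of the 11 windows, 1 of *Meg3* and that of *Peg3*, and in 588 of all 32851 windows (1.79%). The 250 bases before the start are shown for both, with the element in capitals. It begins 57 bases before the *Meg3* start and 178 bases before the *Peg3* start.
Meg3, chr12:109540746-109540995, plus strand: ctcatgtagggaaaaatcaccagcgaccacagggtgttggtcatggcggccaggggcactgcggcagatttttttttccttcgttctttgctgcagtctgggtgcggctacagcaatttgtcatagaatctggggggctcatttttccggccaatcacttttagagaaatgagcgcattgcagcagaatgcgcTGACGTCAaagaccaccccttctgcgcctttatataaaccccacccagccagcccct
Peg3, chr7:6730420-6730669, minus strand: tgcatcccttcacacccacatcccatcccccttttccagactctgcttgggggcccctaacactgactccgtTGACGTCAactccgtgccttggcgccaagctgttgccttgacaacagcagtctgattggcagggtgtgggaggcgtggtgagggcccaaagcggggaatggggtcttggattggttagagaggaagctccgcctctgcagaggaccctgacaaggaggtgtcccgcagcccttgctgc
A match of letters is a description and not a binding site. CpG dinucleotides, the sites of the methylation that marks imprinted genes, numbered 1 to 45 in the 11 windows against a median of 7 (quartiles 3 and 20) over all windows.

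The table pools 10 batches named in the labels, with no map from cells to batches, so it counts as 1 sample. No test between time points was possible and no p-value is given. The SDs are over cells and the intervals cover counting error only. The median total was 510305 UMIs per kept cell, and group medians ran from 195480 (d20) to 1055206 (d2). Spike-in RNA took 3.04% of UMIs at d0 and 18.0% at d20 and was left out of CPM. The summed CPM of 10 fibroblast markers (*Col1a1*, *Thy1* and others) had a median of 3216 per cell at d0, 12349 at d8, 7125 at d12 and 46.0 at d20, where *Postn* had no UMI, and that of 10 XEN markers (*Sox17*, *Gata4* and others) was 49.1 at d0, 46.2 at d12 and 1491 at d20. The colony cells of d12 fell into 2 ranges of running number that went apart in both lists. In those numbered 1 to 48 (21 cells) the fibroblast median was 3749 and the XEN median 196. In those numbered 49 to 96 (30 cells) they were 19.8 and 1104. All 21 kept cells of the first range carried numbers 1 to 24. Where between the numbers 24 and 49 the change lies therefore cannot be read from kept cells. The minimum of detected genes removed 27 of 48 cells in the first range, 18 of 48 in the second and 34 of 72 at d20. For most of the genes the 2 ranges are given separately, for kept cells unless stated. Contrasts between the ranges depended on the minimum of detected genes. Over all deposited cells the order of the 2 means was reversed for *H19*, *Dlk1*, *Plagl1* and *Cdkn1c*. *H19* averaged 1434 and 1094 CPM in kept cells, and 1265 and 1557 over all. *Cdkn1c* averaged 92.7 and 88.6 CPM in kept cells, and 52.0 and 58.3 over all. The other genes kept their order.

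**Figure D1:**
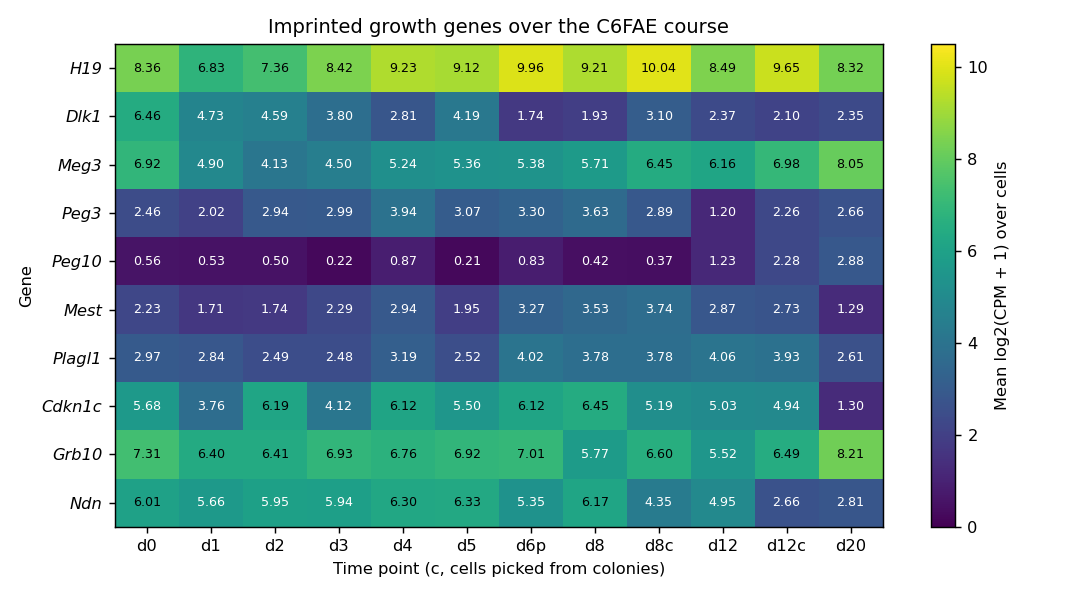
Mean log2(CPM + 1) over cells of each imprinted growth gene (rows) at each time point (columns), with the value printed in each field and in the colour scale. *Dlk1* is highest at d0 (6.46), *H19* at d8c (10.04), and *Meg3* (8.05) and *Grb10* (8.21) at d20, where *Cdkn1c* is lowest (1.30).

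*H19*, a non-coding RNA that restrains growth in the embryo, was detected in all kept cells but 1. At d0 its level ran from 19.2 to 2493 CPM over 72 cells with a median of 456, and at d1 from 9.62 to 1490 with a median of 111. The mean was lowest at d1 (235 ± 328 CPM, SD, n = 40 cells) and highest at d6p (1720 ± 1619, n = 86 cells). At d20 it was 596 ± 510 (n = 38 cells), near the d0 mean of 533 ± 493 among kept cells. Over all deposited cells the means were 879 CPM at d20 and 562 at d0. Summed over kept cells the levels were 677 and 403 CPM, so by these 2 measures d20 lay above d0. The cells of every group overlapped those of every other. At d12 the cells were spread wide, from 56.5 to 9065 CPM, with quartiles of 101 and 1433 around a median of 205, and 20 of 67 cells were above 1000 CPM. At d6p 44 of 86 cells were above that level.

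*Meg3*, the other long non-coding RNA, had low means from d1 to d6p and high ones late in the course. At d0 it ran from 0 to 1504 CPM with a median of 156, at d1 from 0 to 878 with a median of 36.8, and at d2 from 0 to 841 with a median of 15.3. The mean was 220 ± 231 CPM at d0 and 51.5 ± 108 at d2, its lowest value, and the later means then lay between 73.5 and 152 CPM from d3 to d12. At d20 it was 389 ± 477 CPM, every cell had at least 49.1 CPM, and the median was 238. The d12 colony cells were split by running number. Those numbered 1 to 48 had a median of 45.6 CPM and a highest value of 295, and those numbered 49 to 96 had a median of 339 and a highest value of 1687, so that among kept cells the second range resembled d20 in level and the first lay below d12 (median 99.8 CPM). Over all deposited cells the means were 302 CPM in the first range, 523 in the second and 119 at d12. The first range then lay above d12.

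*Dlk1*, a membrane protein related to Notch ligands that marks immature mesenchymal cells, was highest at d0 and low late in the course, when its neighbour *Meg3* was high. Its level at d0 ran from 0 to 1414 CPM with a median of 105. At d1 the median was 21.5 CPM, at d4 it was 3.98, and at d8 it was 1.83 with a highest cell of 56.9. The mean went from 179 ± 220 CPM at d0 to 43.0 ± 58.5 at d1 and 7.88 ± 14.1 at d8, and was 12.6 ± 20.6 at d20. Summed over cells this was 145 CPM at d0 (95% Poisson interval 141 to 148) and 6.71 at d8 (6.03 to 7.46). The number of cells above 100 CPM was 37 of 72 at d0 and 0 at d8 and d20. The d4 mean depended on the running number of the cells, at 10.4 CPM in cells 1 to 48 and 45.6 in those above 48, and both were below the d0 means of 199 and 150 in the same ranges. The d12 colony cells averaged 29.4 ± 50.2 CPM in the numbers 1 to 48 (median 4.82) and 7.61 ± 24.3 in the numbers 49 to 96 (median 0). Over all deposited cells these 2 means were 12.8 and 53.0 CPM, in the reverse order.

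**Figure D2:**
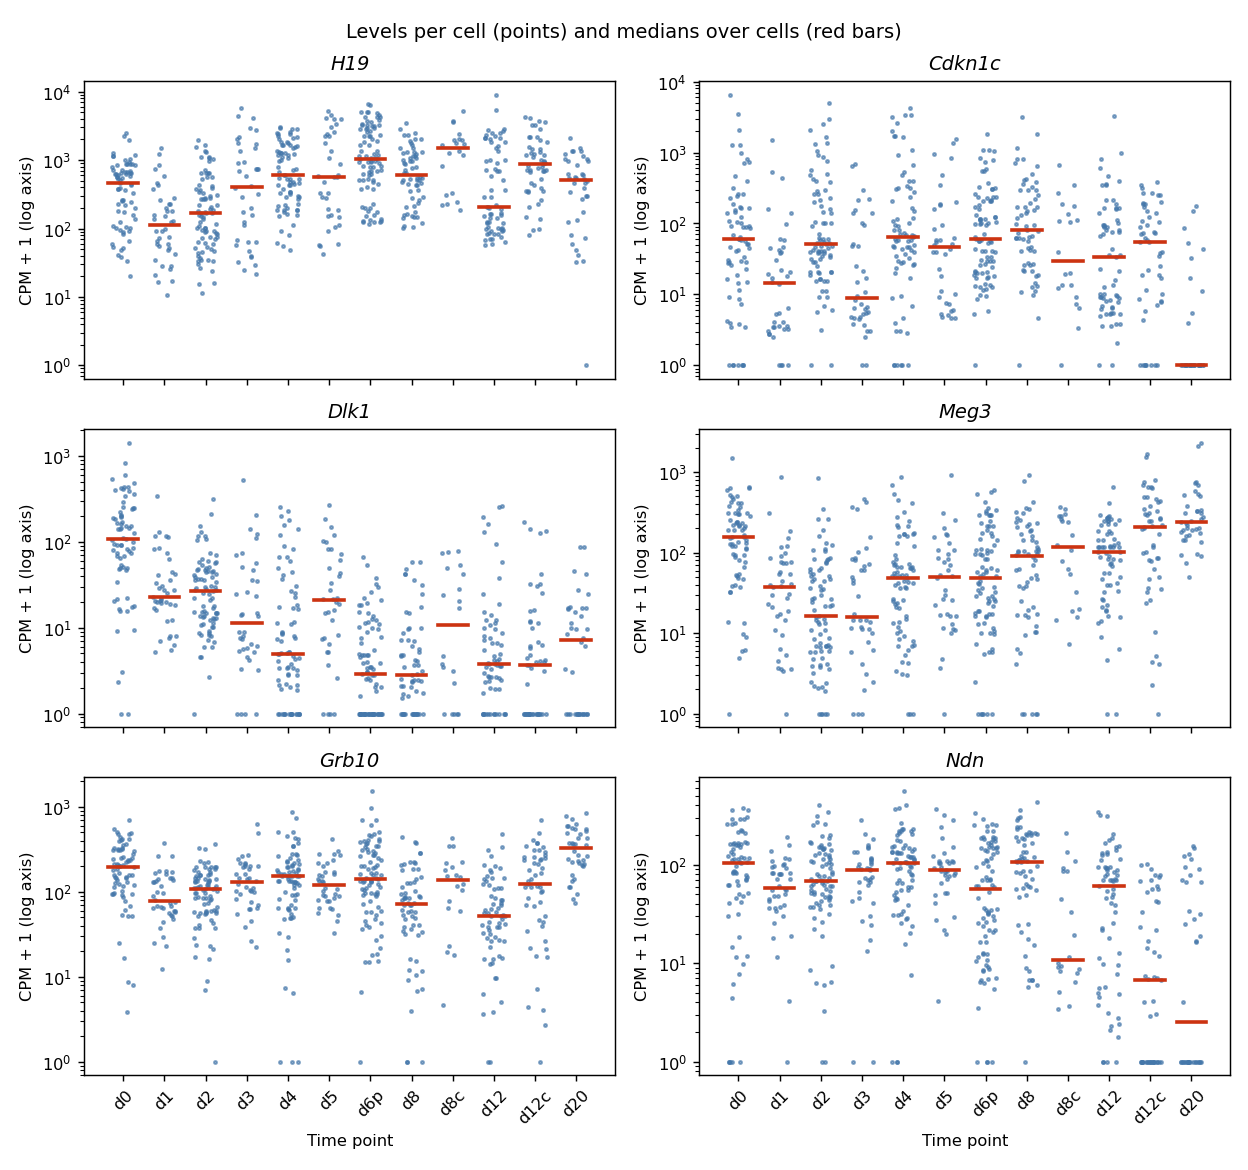
CPM + 1 per cell (points, log axis) of 6 of the genes at the 12 time points, with the median over cells as a red bar. *Dlk1* drops from a median of 105 CPM at d0 to 1.83 at d8, *Meg3* and *Grb10* are highest at d20, and at d20 most cells lie at 0 for *Cdkn1c*.

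*Plagl1* and *Peg3* are zinc finger proteins that act on transcription, and in both a few cells lay far above a low median. *Plagl1* ran from 0 to 226 CPM at d0 with a median of 5.72, and from 0 to 2271 at d6p with a median of 12.3. Its mean was 28.0 ± 44.6 CPM at d0 and 95.8 ± 290 at d6p, or 70.2 without the highest cell. In d12 colony cells numbered 1 to 48 it was 174 ± 212 CPM with a median of 75.0, and in those numbered 49 to 96 it was 39.4 ± 81.4 with a median of 3.76. Over all deposited cells these 2 means were 76.3 and 118 CPM, in the reverse order. At d20 the mean was 28.8 ± 47.6 CPM, near that of d0, while the median was 1.04. A UMI was held by 19 of 38 cells at d20 and 49 of 72 at d0. *Peg3* kept means of 19.6 to 42.2 CPM from d0 to d8c. At d12 its mean was 5.63 ± 13.5 CPM, its lowest, with 28 of 67 cells holding a UMI and a highest cell of 80.7 CPM, and at d20 it was 30.9 ± 51.8.

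*Cdkn1c*, an inhibitor of cyclin-dependent kinases, had the highest coefficient of variation (SD over mean) over cells of the 10 genes at d0 (2.85). At d0 it ran from 0 to 6555 CPM with a median of 58.7, and its mean of 319 ± 910 became 232 without the highest cell. At d4 it ran from 0 to 4226 CPM with a median of 63.8, and 10 of 77 cells exceeded 1000 CPM. From d2 to d12 the medians stayed between 7.90 (d3) and 78.7 CPM (d8). At d20 the median was 0 and the highest cell had 176 CPM, only 10 of 38 cells held a UMI (26.3%, exact 95% interval 13.4 to 43.1), and the mean was 15.1 ± 39.7 CPM. The d12 colony cells numbered 49 to 96, which shared high XEN markers with d20, did not share this value, with 22 of 30 cells holding a UMI (73.3%, interval 54.1 to 87.7) and a mean of 88.6 ± 102 CPM. With every cell thinned to 50000 UMIs the shares were 16.7% at d20 and 76.9% in those colony cells. The summed level of 5 cell cycle markers (*Mki67*, *Top2a*, *Ccnb1*, *Cdk1* and *Ccna2*) had a median of 818 CPM at d20, 324 in those colony cells, 11.7 at d12 and 818 at d0, and its part in the *Cdkn1c* values was not tested.

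*Cdkn1c* means also moved with the running number within a time point. At d0 the 4 successive blocks of up to 24 numbers averaged 75.6, 220, 649 and 453 CPM, and at d4 they averaged 797, 544, 216 and 109. The medians of the d4 blocks lay between 36.6 and 80.1 CPM, while the mean of log2(CPM + 1) was 7.42 in d4 cells numbered 1 to 48 and 4.70 in those above 48. The means at d20 were 20.3, 7.09 and 18.8 CPM in its 3 blocks, below every block of d0 and d4.

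*Grb10*, an adaptor protein that dampens insulin and insulin-like growth factor signalling, was found in nearly all cells and varied least among the 10 genes at d0, with a coefficient of variation of 0.673 against a median of 1.30 over 7041 genes. At d0 it ran from 2.87 to 692 CPM with a median of 197. The mean was 217 ± 146 CPM at d0 and 105 ± 74.6 at d1 and was lowest at d12 (81.0 ± 88.7, median 51.4). At d20 it was 355 ± 206 CPM, with a lowest cell of 73.8, a median of 331 and a highest of 847, and 35 of 38 cells were above 100 CPM against 19 of 67 at d12. The colony cells of d12 again differed by range, with medians of 45.9 CPM in those numbered 1 to 48 and 227 in those numbered 49 to 96. Their means were 87.4 and 222 CPM in kept cells, and 287 and 381 over all deposited cells.

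*Ndn* encodes Necdin, a MAGE family protein of post-mitotic neurons and mesenchymal cells. It held steady for most of the course, with means between 66.5 and 120 CPM from d0 to d8. At d0 it ran from 0 to 377 CPM with a median of 103. At d8c the median was 9.79 CPM in 20 cells, at d12 it was 59.9 in 67 cells, and at d20 it was 1.53, with 19 of 38 cells holding a UMI and a highest cell of 153 CPM. In d12 colony cells numbered 49 to 96 the median was 0 and the highest cell had 88.5 CPM, and in those numbered 1 to 48 the median was 13.2.

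*Mest*, a membrane protein of the endoplasmic reticulum with a hydrolase fold, and *Peg10*, a retrotransposon-derived gene needed for the placenta, were low in the median cell throughout. *Mest* had medians of 0 to 5.92 CPM over the 12 groups while its highest cells reached 175 to 1079 CPM, and its means over the 12 groups ran from 10.4 ± 26.1 at d2 to 57.6 ± 94.1 at d8c. The d12 colony cells averaged 87.1 ± 155 CPM in the numbers 1 to 48 and 30.8 ± 109 in the numbers 49 to 96. At d20 12 of 38 cells held a *Mest* UMI, against 58 of 67 at d12, and with every cell thinned to 50000 UMIs the shares were 13.9% and 27.3%. *Peg10* averaged below 5 CPM from d0 to d12. It averaged 18.5 ± 25.5 CPM at d20, with a median of 8.84 and a highest cell of 94.6, and 18.5 ± 23.8 in d12 colony cells numbered 49 to 96, against 2.70 ± 6.23 in those numbered 1 to 48. With 50000 UMIs per cell it was seen in 50.0% of cells at d20, 50.0% of that second colony range and 7.04% at d0. *Peg10* was also higher in the cells left out for few genes, since over all deposited cells the d20 mean was 52.4 CPM. The means of the first and second colony ranges were then 40.4 and 89.5 CPM.

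Ordered by mean, the 12 time points of each gene gave 11 steps between neighbours. All 11 were smaller than the SD over cells of both neighbours for 8 genes, and for *Dlk1* and *Cdkn1c* 10 of 11 were. Neighbours in a sorted order lie close by construction, and the SD over cells is not the error of a mean. These counts therefore do not show that time points are alike. The exceptions were the step from d5 (44.2 CPM) to d0 for *Dlk1* and from d20 to d3 (78.9 CPM) for *Cdkn1c*. The highest mean was 3.94 times the lowest for *Plagl1* and 4.38 times for *Grb10*, and 28.3 times for *Dlk1*, 28.1 times for *Cdkn1c* and 38.7 times for *Peg10*.

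Differences between time points were taken on the mean of log2(CPM + 1) per cell, over genes whose mean reached 1 in 1 of the groups or both, and a gene was counted past the fold where 2 groups differed by more than 2 on that scale. Because CPM are relative, each difference is read against that of all genes. Between d1 and d0 all 9 tested genes were lower at d1 on the mean log2 scale. The median over 9441 genes was 0.43, with a lower quartile of -0.04, and the median of 30 other imprinted genes was 0.32. As mean CPM, *Peg3* was higher at d1 (22.9) than at d0 (19.6). The median CPM of *Plagl1* (6.24 and 5.72) and *Mest* (1.11 and 1.08) was also slightly higher at d1. The median of the 9 was -0.91. *Meg3* (-2.02) was past the fold, and *Cdkn1c* (-1.92), *Dlk1* (-1.73) and *H19* (-1.52) came just short of it. Of all genes 3.20% were past the fold in either direction and 1.08% in the lower. Depth differed beside these values too, with a median of 749158 UMIs per cell at d1 and 344195 at d0, and its part was not tested. The d1 cells all carried numbers up to 48, and against d0 cells numbered 1 to 48 no member was past the fold.

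Between d8 and d0, *Dlk1* (-4.53) was the 1 gene of 9 past the fold, with 7.89% of all genes past it, 4.89% higher and 3.0% lower. *Mest* (1.29), *Peg3* (1.17), *H19* (0.86), *Plagl1* (0.81) and *Cdkn1c* (0.77) were higher at d8 on the mean log2 scale and *Grb10* (-1.54) and *Meg3* (-1.21) lower, all short of the fold. As mean CPM, *Cdkn1c* was lower at d8 (253) than at d0 (319). Between d12 and d0 *Dlk1* (-4.09) was again the 1 gene past it, now of 10, with 11.4% of all genes past it (7.21% higher and 4.19% lower), and *Grb10* (-1.79) and *Peg3* (-1.26) had the next largest values. The median over all genes was 0.08 at d8 and -0.01 at d12.

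Between d20 and d0, 4 of the 10 genes were past the fold, against 13.3% of 9352 genes, and the median over all genes was -0.20, the same as over the 10. *Peg10* (2.32) was higher, and *Cdkn1c* (-4.38), *Dlk1* (-4.11) and *Ndn* (-3.20) were lower, where 4.38% of all genes were higher and 8.92% lower. The *Ndn* difference ran from -3.67 to -1.41 over the alternative settings and was below the fold in 4 of 12, log2 of mean CPM and summed UMIs among them, and that of *Peg10* was below it in 1. *H19* (-0.04), *Peg3* (0.20) and *Plagl1* (-0.36) differed least, and *Grb10* (0.90), *Mest* (-0.94) and *Meg3* (1.13) were short of the fold. As mean CPM, the d0 level was 21.1 times that of d20 for *Cdkn1c*, 14.2 times for *Dlk1* and 3.48 times for *Ndn*, and the d20 level was 11.6 times that of d0 for *Peg10*. Depth differed beside these values, with a median of 344195 UMIs per cell at d0 and 195480 at d20, and its part was not tested. With all cells thinned to 50000 UMIs, the share of cells with a UMI went from 66.2% to 16.7% for *Cdkn1c*, from 85.9% to 25.0% for *Dlk1* and from 84.5% to 44.4% for *Ndn*.

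Between d20 and d12, the last stretch of the course, 3 of 10 were past the fold, with 20.6% of all genes past it, 6.78% higher and 13.8% lower. *Grb10* (2.69) was higher, and *Cdkn1c* (-3.73) and *Ndn* (-2.14) were lower. *Meg3* (1.89), *Peg10* (1.65) and *Peg3* (1.46) were higher by less, and *Dlk1* (-0.02) and *H19* (-0.18) differed little. Over the alternative settings the *Ndn* difference ran from -2.70 to -0.11, and that of *Grb10* from 1.90 to 3.31. The colony cells of d12 numbered 49 to 96 against the 67 cells of the d12 group gave 2 genes past the fold, *Meg3* (2.12) and *Ndn* (-3.10), with 19.8% of all genes past it, 5.61% higher and 14.2% lower. The *Meg3* difference fell below the fold in 7 of 12 alternative settings (1.75 to 2.25 over all 12), TMM, DESeq2 size factors and thinning among them, and the *Ndn* difference in 2 of 12. *Peg10* (1.86) and *Grb10* (1.71) had the next highest values and *Cdkn1c* (-0.35) stood near the median of all genes (-0.34). These comparisons share the d0 or the d12 cells and are not independent of each other.

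**Figure D3:**
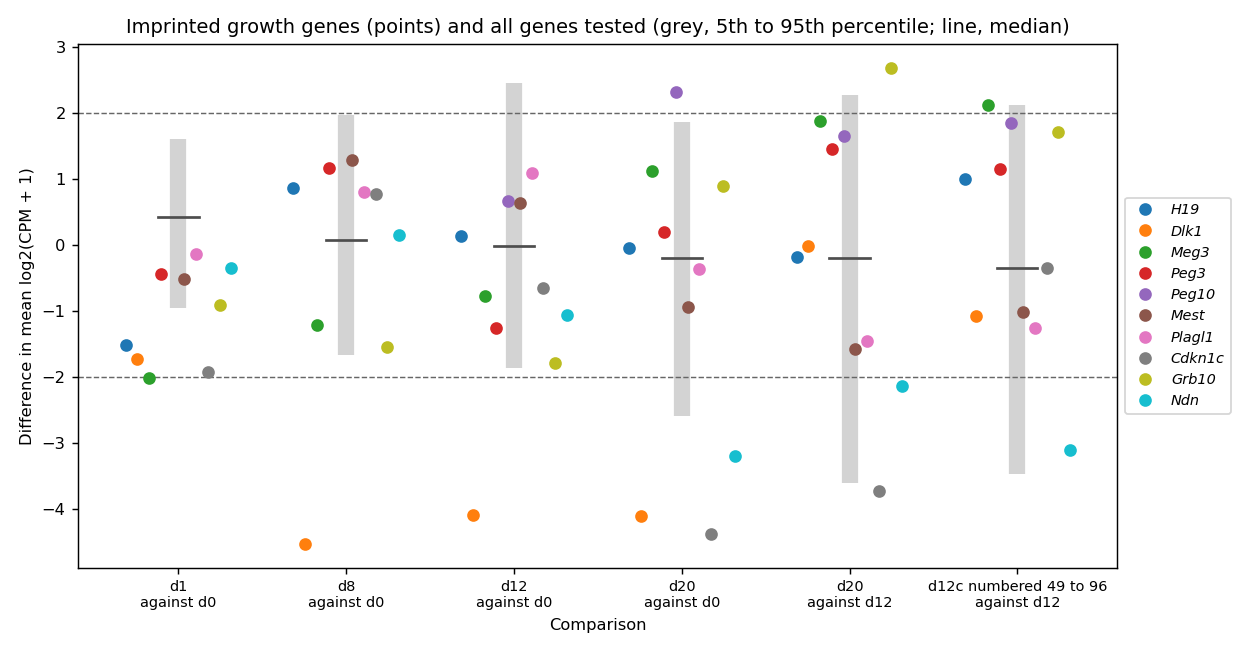
Differences in mean log2(CPM + 1) of the tested imprinted growth genes (coloured points) in the 6 comparisons, over the 5th to 95th percentile of all genes tested (grey bar) and their median (line), with dashed lines at a difference of 2 in either direction. *Dlk1* lies between -4.53 and -4.09 at d8, d12 and d20 against d0, and *Cdkn1c* lies at -4.38 and -3.73 in the comparisons of d20 and near the all-gene median in d12 colony cells.

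The late differences were also followed in blocks of up to 24 running numbers. The kept d12 colony cells filled the blocks 1 to 24, 49 to 72 and 73 to 96, and no cell numbered between the first 2 of these was kept. *Meg3* averaged 134, 122 and 113 CPM in the 3 blocks of d12, 72.8 in the first block of d12 colony cells, 549 and 354 in the later ones, and 351, 438 and 378 at d20. *Grb10* averaged 73.4 to 95 CPM at d12, 87.4, 253 and 191 in the d12 colony blocks, and 273 to 423 at d20. *Peg10* averaged 2.18 to 5.31 CPM at d12, 2.70 in the first colony block and 18.0 in the second, and 12.3 to 20.8 at d20. For these 3 genes every block of d20 lay above every block of d12 in mean CPM. For *Peg10* the last d20 block rested on 2 of 8 cells with a UMI, and its median was 0. On the mean log2 scale *Peg10* was 1.10 in d20 cells above 48. That was below the d12 values of 1.27 (numbers 1 to 48) and 1.15 (above 48). For *Ndn* the d12 blocks averaged 53.5 to 86.1 CPM and the d20 blocks 9.87 to 41.4, again without overlap. A running number is not labelled as a batch.

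**Figure D4:**
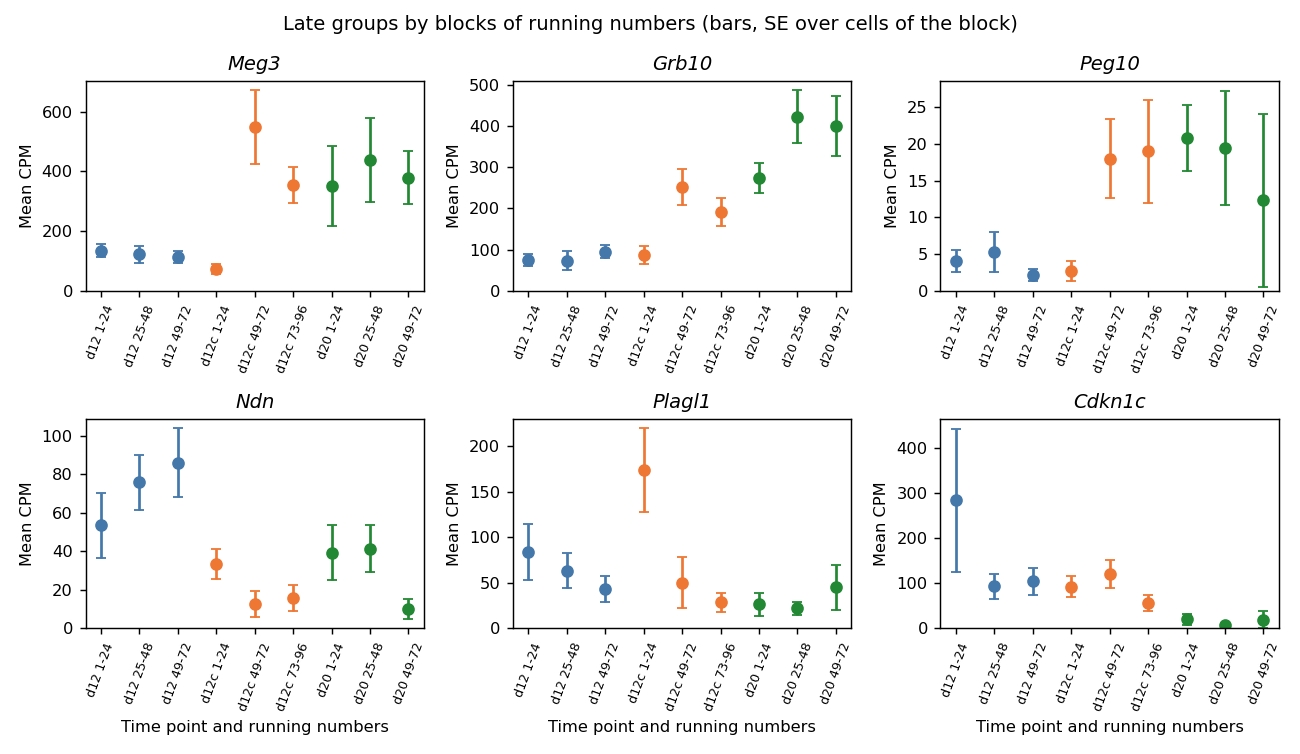
Mean CPM with its SE over the cells of the block for 6 genes in blocks of up to 24 running numbers of d12 (blue), d12c (orange) and d20 (green). For *Meg3*, *Grb10* and *Peg10* the later d12c blocks lie nearer to d20 than the first d12c block does, and *Cdkn1c* is lowest in the d20 blocks (7.09 to 20.3 CPM).

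Genes of the same imprinted clusters were compared cell by cell within each time point. *H19* and *Igf2*, the growth factor gene beside it that is read from the paternal copy, share enhancers. Their Spearman coefficient over cells was 0.522 (d20, 38 cells) to 0.793 (d3, 38 cells) with a median of 0.736 over the 12 time points, while the 95th percentile over all pairs of genes was 0.231 to 0.423. *Igf2* was the gene closest to *H19* among all genes compared in 10 of the 12 groups, and was ranked 11 at d20. With every cell thinned to 50000 UMIs the coefficients were 0.524 to 0.794, and within ranges of running number they were 0.538 to 0.860 in 19 ranges. The points share libraries and depth, and the coefficients are a description. *Igf2* averaged 588 CPM at d0, 392 at d1, 1219 at d5, 968 at d6p and 885 at d12, and at d20 it was at 243 CPM, its lowest. On the mean log2 scale its differences to d0 were -0.19 at d8, -0.25 at d12 and -2.13 at d20, and those of *H19* were 0.86, 0.14 and -0.04.

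**Figure D5:**
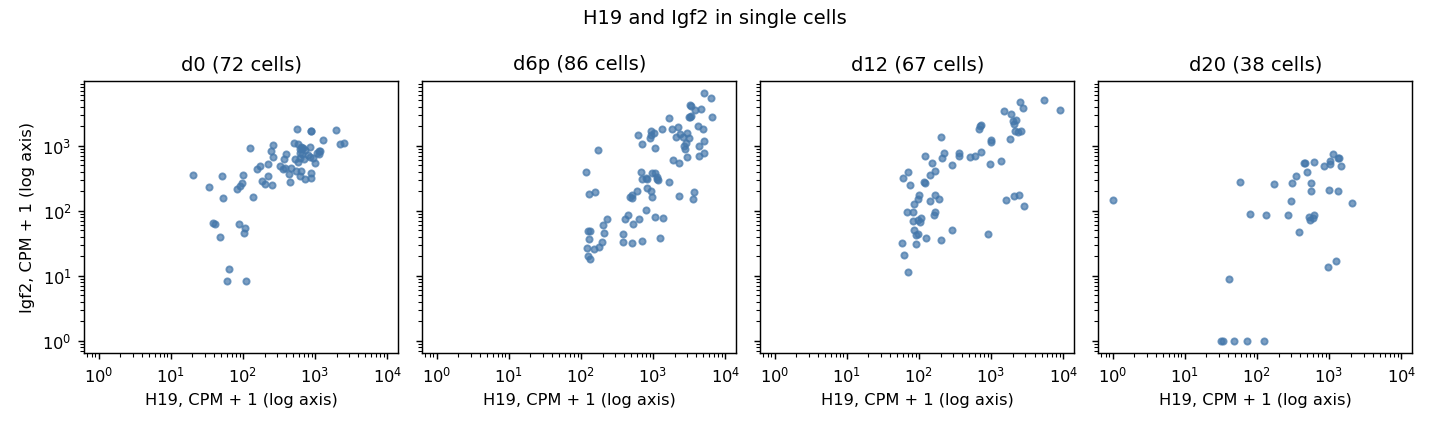
*H19* against *Igf2*, each as CPM + 1 on a log axis, in the cells of d0 (72), d6p (86), d12 (67) and d20 (38), with 1 point per cell. The cells form a rising band at d0, d6p and d12 (Spearman 0.723, 0.744 and 0.713), and a looser one at d20 (0.522).

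*Meg3* and *Rian*, a non-coding RNA further along the same cluster, had coefficients of 0.192 (d1) to 0.613 (d5) with a median of 0.442, or 0.381 after thinning. At d0 (0.248) and d1 they were below the 95th percentile over all pairs (0.270 and 0.303), and *Rian* was ranked 135 and 956. In the other groups they were above it. The d12c value of 0.469 was 0.198 and 0.156 within its 2 number ranges. *Rian* followed *Meg3* in level too, from 50.2 CPM at d0 to 14.5 at d1, 18.1 at d12 and 75.7 at d20, and 9.26 and 45.1 CPM in the earlier and later numbered d12 colony cells. *Dlk1* and *Meg3*, which share the cluster but are read from opposite parental copies, had a median of 0.201 and ranged from -0.230 to 0.463. *Sgce*, which shares a promoter region with *Peg10*, went from 50.1 CPM at d0 to 59.2 at d12 and 202 at d20 (difference to d0 2.14), and *Peg10* from 1.59 to 3.88 and 18.5, while their coefficient over cells had a median of 0.0741 (-0.115 to 0.527). The highest was that of d12c with both number ranges together. *Kcnq1ot1*, the paternally expressed non-coding RNA of the *Cdkn1c* cluster, averaged 116 CPM at d0 and 186 at d20, where *Cdkn1c* was lowest, and their coefficient had a median of 0.161 (0.00807 to 0.469). *Phlda2*, another gene of that cluster, averaged 14.3 CPM at d0 and 22.2 at d20 with medians of 0. *Peg3* and its cluster partner *Usp29*, which averaged 1.22 to 8.52 CPM over the 12 groups, had a median of 0.292 (0.0286 to 0.625), or 0.133 after thinning, and in sparse counts such values carry little. *Zim1* of the same cluster averaged 0 (d20) to 7.30 CPM (d8). *Rtl1* and *Magel2*, which share clusters with *Dlk1* and *Ndn*, averaged below 1 CPM in every group. *Snrpn*, of the *Ndn* cluster, had no UMI in any cell. A row without any count does not show whether the RNA was low, absent or not countable. The pairs of the 10 genes had median coefficients over time points of at most 0.316 (*H19* with *Plagl1*).

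*Sox17* is a transcription factor of endoderm and among the XEN markers. Between d3 and d8c it reached 20 CPM in 22 cells, and 207 cells held no UMI of it. *Plagl1* averaged 171 CPM (median 129) in the former and 50.4 (median 5.65) in the latter, or 29.2 when the latter were weighted to the same time points and number ranges. *Cdkn1c* averaged 744 and 177 CPM (weighted 165, medians 167 and 48.5), *H19* 2199 and 1257 (weighted 1049) and *Peg3* 74.4 and 33.9 (weighted 27.5). *Dlk1* averaged 44.9 CPM in the *Sox17* cells and 17.9 in the others (weighted 18.9). *Meg3* (115 and 110 CPM), *Mest* (57.4 and 50.6), *Ndn* (79.0 and 92.9) and *Grb10* (127 and 176) were closer in mean. Their medians were 79.2 and 42.4 CPM for *Meg3* and 18.1 and 4.07 for *Mest*, further apart than the means. For *Ndn* they were 69.0 and 74.1, and for *Grb10* 91.0 and 132. The median total was 498146 UMIs in the *Sox17* cells and 375704 in the others, and its part in these values was not tested.

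By the correlation of the 12 means of log2(CPM + 1) over time points, among 10382 genes, the closest course to that of *Peg10* was that of *Cyp26a1* (r = 0.980), which breaks down retinoic acid and averaged 0.0606 CPM at d0 and 2246 at d20. The closest to *Dlk1* was *Dzip1l* (0.928), to *Meg3* *Ppp2r2b* (0.888), to *Peg3* *Dnpep* (0.968), to *Mest* *Sostdc1* (0.944), to *Plagl1* *Creg1* (0.925) and to *Ndn* *Tulp4* (0.968). *H19* (*Ndufa7*, 0.873), *Cdkn1c* (*Dazap2*, 0.927) and *Grb10* (*Nub1*, 0.813) had partners of the same kind. Such values are the highest of many over 12 points that share libraries.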

How the data were processed

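Single cells were picked by hand, and their cDNA was amplified and sequenced in pairs. The authors deposited 1 table of counts, in which each value is the number of distinct UMIs of a gene in a cell after alignment to the mouse mm9 transcriptome, per the labels. The aligner and the use of strand are not given in the sources used here. Spike-in rows (92) were left out, counts were scaled to CPM per cell, and cells with fewer than 4000 detected genes (138 of 808) were removed. Doublets were not called, since cells were picked singly.

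Levels were averaged over cells, with SDs over cells, exact Poisson intervals for sums and exact Clopper-Pearson intervals for shares (95%). Differences were taken on log2(CPM + 1), with a pseudocount of 1, a mean of at least 1 in either group and a fold of 2 on the log2 scale. No column of another sample was used, and all columns count as 1 pooled sample. The 10 genes, the lists of 58 other imprinted genes (56 with a row) and of markers, and the split of d12c by number were chosen with earlier results of these data known. The rule for named genes took the 10, listed genes of their clusters, 6 regulators of imprints by level and the 3 genes of closest course, of which the closest is printed. Other imprinted genes past the fold were named after their values were seen. Alternatives used edgeR 4.0.16 (TMM) and DESeq2 1.42.0 (size factors) for scaling only, with Python 3.11.15, numpy 2.4.6, pandas 2.3.3, scipy 1.17.1 and R 4.3.3. On simulated counts for d20 against d0 over 10403 genes, 99 of 100 genes raised 8-fold and 100 of 100 lowered 8-fold were recovered, and 0 of 10203 unchanged genes passed the fold. The changed genes were drawn above a minimum level at d0. All genes were given the same spread between cells, with no effect of batch or running number. It thus cannot give the rate of false or missed calls for genes as variable as *Cdkn1c* (coefficient of variation 2.85 at d0) or as low as *Peg10* (1.59 CPM).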

Additional observations from a re-analysis of the deposited data

How the results depend on the processing

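No paired analysis was possible because the cell names carry no batch. Of 80 counts of genes past the fold under 14 alternative settings, 60 stayed within 1.5 times the reported count. Between d1 and d0 the count of 1 became 0 with no minimum of detected genes, 0 with at least 2000 genes, 0 with a pseudocount of 10, 0 in cells numbered 1 to 48, 2 with summed UMIs, 2 with thinned cells and 4 at a fold of 1. Between d8 and d0 the count of 1 became 5 at a fold of 1. Between d12 and d0 the count of 1 became 5 at a fold of 1, 2 with thinned cells and 2 in cells numbered 1 to 48. Between d20 and d0 the count of 4 became 2 with a pseudocount of 10. Between d20 and d12 the count of 3 became 1 with a pseudocount of 10 and 8 at a fold of 1. For d12 colony cells numbered 49 to 96 against d12 the count of 2 became 1 with TMM, 1 with DESeq2 size factors, 1 with log2 of mean CPM, 1 with thinned cells, 0 with a pseudocount of 10 and 9 at a fold of 1. The cause was not tested.

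Of 146 values of the 12 single differences past the fold, 118 stayed past it, 28 kept their sign below it and 0 changed sign. *Dlk1* in its 3 comparisons and *Cdkn1c* between d20 and d0 stayed past it in every setting run. *Meg3* between d1 and d0 (-2.77 to -1.36) and *Ndn* between d20 and d12 (-2.70 to -0.11) fell below it in 6 of 12 settings each, *Meg3* in d12 colony cells numbered 49 to 96 against d12 (1.75 to 2.25) in 7 of 12 and *Ndn* between d20 and d0 (-3.67 to -1.41) in 4 of 12. The weighting of cells without *Sox17* by number range and the within-range and thinned coefficients were chosen after seeing the data. Cells numbered 1 to 48 alone were not run for the second d12 colony range, nor cells above 48 for d1 and d20, which had 0 and 8.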

Other observations

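Among the 56 other imprinted genes with a row, *Dcn* (decorin, a matrix proteoglycan of fibroblasts) had the widest course. It averaged 482 CPM at d0, 4058 at d8 and 2828 at d12, and 75.1 CPM in d12 colony cells numbered 49 to 96. At d20 it had a UMI in 0 of 38 cells, which does not show that cells lack the RNA. By the rule of 3 (3 over the number of cells, not the exact interval) a share of up to 7.89% is allowed. *Dio3*, a deiodinase gene at the far end of the *Dlk1* and *Meg3* cluster, averaged 1.89 CPM at d0, 40.8 at d12 and 0 at d20. *Nnat* averaged 48.2 CPM at d0 and 355 at d8. *Blcap*, within which *Nnat* lies, averaged 34.1 CPM at d0 and 123 at d12. Near *Peg10* on chromosome 6, *Ppp1r9a* averaged 3.26 CPM at d0 and 55.8 at d20 and *Pon2* averaged 8.98 and 95.5. *Peg12* averaged 19.2 CPM at d0 and 2.59 at d20, *Nap1l5* 1.40 at d0 and 28.0 at d8, *Osbpl5* 15.3 at d12 and 1.28 at d20, and *Ddc* 3.75 at d12 and 43.3 at d20. These genes were chosen after their values were seen. Of 33 other imprinted genes tested between d20 and d0, 3 were higher and 4 lower past the fold, against 4.38% and 8.92% of all genes.

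Of genes that keep imprints, *Zfp57*, a zinc finger protein that binds methylated imprint control regions, averaged 25.6 CPM at d0 and 3.79 at d20. *Dnmt1*, the methyltransferase that copies methylation at replication, averaged 83.4 CPM at d0, 21.7 at d8 and 64.6 at d20, and its partner *Uhrf1* averaged 43.0, 5.75 and 56.5. *Trim28*, a partner of *Zfp57*, averaged 57.7, 65.8 and 74.5 CPM, *Ctcf*, which binds imprint control regions, 31.5, 16.5 and 34.2, and *Dppa3* had no UMI in any kept cell. The summed cell cycle markers had medians of 818, 39.7 and 818 CPM at the same times, and their part in these values was not tested.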
